A study of Rattus norvegicus with 18 samples.

Results

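The 10 genes followed here in rat 9L glioma are known targets of the transcription factor NRF2: Slc7a11, Gclc, Gclm, Gsr, Txnrd1, Srxn1, Nqo1, Gsta1, Akr1b8 and Hmox1. A probe set was taken as a member if its only gene symbol in the platform annotation was one of these names. All 10 genes were found, each with 1 probe set, among 27363 probe sets and 14324 genes measured with a single symbol. The members were selected partly on measured values of these data: the gap between tumour and culture levels, and the place of Hmox1 apart from the rest, were known when they were chosen. Both are therefore given as descriptions without a test.

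The study measured RNA from 9L, a gliosarcoma cell line of the Fischer rat, in 6 groups of 3 arrays. Hypoxic tumour regions were laser-microdissected from areas that had bound EF5, a nitroimidazole that is retained in cells low in oxygen, and normoxic tumour regions came from EF5-negative areas of the same 3 tumours. The tumours had been started from pieces of earlier-passage 9L tumours that were tied to the epigastric vessels, in a line of tumours begun under the skin of male Fischer 344 rats of 6 weeks. The cultured groups were hypoxic cells kept at 0.2% O2 for 6 h, normoxic cells kept at about 20% O2 for 6 h, hypoxic cells kept at 0.2% O2 for 16 h, and normoxic cells kept at about 20% O2 for 16 h. All 6 groups come from this single line, so they model 1 tumour. A dissected region also holds the host's own immune and vessel cells, which the cultures lack. All RNA was amplified before hybridization. Values are log2 probe set signals, in which 1 unit is a factor of 2, and levels of different probe sets cannot be set against each other.

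NRF2, encoded by Nfe2l2, is a transcription factor that KEAP1 holds in the cytoplasm and marks for destruction. Oxidants and electrophiles modify KEAP1, NRF2 then accumulates in the nucleus with a small MAF partner, and the pair binds antioxidant response elements in its target genes. The targets supply cystine and glutathione, recycle thioredoxin and peroxiredoxin, and reduce or conjugate quinones and other electrophiles. Haem oxygenase-1, the product of Hmox1, is a shared target: the repressor BACH1 holds it off, and hypoxia-inducible factor can switch it on in rodent cells.

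Promoter windows from RefSeq, build GRCr8, ran from 250 bases before to 50 after the annotated start and were found for 8 of the 10 members, with Txnrd1 having a pair of windows. The core of the antioxidant response element, TGACNNNGC read on both strands, was present in windows of 3 members, Gclm, Txnrd1 and Gsta1. Of all 33469 rat promoter windows of this length, 12.1% held the same letters. None of these matches overlapped the AP-1 letters TGANTCA, which 7.33% of windows held and which Srxn1 alone held among the members. In Srxn1 the AP-1 match at bases -5 to 2 is followed by GC. That stretch, TGAGTCAGC, differs from TGACNNNGC only by a G in place of the C before NNN. Forms of the element other than TGACNNNGC were not searched. The hypoxia-response core, ACGTG or GCGTG on either strand, was found in 5 members, Srxn1, Txnrd1, Gclc, Gsta1 and Nqo1, and in 41.6% of all windows. Sequences are shown for 5 members. Gclm, Txnrd1 and Gsta1 are shown because they hold TGACNNNGC. Nqo1 is shown because it had the widest gap between tumour and culture, and Gclc because it had the second largest tumour difference with oxygen. Each is written 5′ to 3′ along the gene's own strand, with capitals marking the antioxidant response letters in the first 3 and the hypoxia-response letters in the last 2.
Gclm, chr2:213031885-213032184, plus strand: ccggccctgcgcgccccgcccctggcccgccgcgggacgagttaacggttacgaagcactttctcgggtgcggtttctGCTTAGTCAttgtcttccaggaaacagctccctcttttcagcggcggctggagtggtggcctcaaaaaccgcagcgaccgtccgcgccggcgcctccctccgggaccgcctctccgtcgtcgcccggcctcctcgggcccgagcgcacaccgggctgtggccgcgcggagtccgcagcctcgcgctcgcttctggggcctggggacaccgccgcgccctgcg
Txnrd1, chr7:22755855-22756154, minus strand: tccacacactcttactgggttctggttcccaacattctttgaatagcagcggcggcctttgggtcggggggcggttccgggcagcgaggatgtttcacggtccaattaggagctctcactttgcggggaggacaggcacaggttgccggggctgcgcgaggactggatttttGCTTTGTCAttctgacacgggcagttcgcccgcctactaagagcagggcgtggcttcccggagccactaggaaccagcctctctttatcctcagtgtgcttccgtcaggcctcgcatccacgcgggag
Gsta1, chr9:31216483-31216782, minus strand: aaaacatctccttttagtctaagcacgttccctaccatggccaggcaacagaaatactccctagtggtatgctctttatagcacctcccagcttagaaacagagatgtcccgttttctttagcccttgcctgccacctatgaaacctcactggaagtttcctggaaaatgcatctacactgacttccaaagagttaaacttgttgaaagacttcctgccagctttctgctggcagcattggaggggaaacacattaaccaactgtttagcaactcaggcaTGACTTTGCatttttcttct
Nqo1, chr19:52220218-52220517, minus strand: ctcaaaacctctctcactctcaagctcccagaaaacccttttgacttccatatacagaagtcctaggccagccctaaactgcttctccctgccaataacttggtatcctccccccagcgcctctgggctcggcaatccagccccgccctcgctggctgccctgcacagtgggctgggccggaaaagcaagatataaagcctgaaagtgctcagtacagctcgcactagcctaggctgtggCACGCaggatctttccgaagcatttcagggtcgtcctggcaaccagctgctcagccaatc
Gclc, chr8:87510226-87510525, plus strand: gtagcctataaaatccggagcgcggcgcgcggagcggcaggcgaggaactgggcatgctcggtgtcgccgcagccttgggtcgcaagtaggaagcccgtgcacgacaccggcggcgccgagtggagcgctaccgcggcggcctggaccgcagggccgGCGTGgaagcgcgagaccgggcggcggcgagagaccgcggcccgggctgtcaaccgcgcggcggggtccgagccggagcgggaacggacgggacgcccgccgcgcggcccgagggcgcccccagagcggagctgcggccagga
In Gclm the match GCTTAGTCA, which is the element read on the opposite strand, lay at bases -172 to -164 relative to the start. In Txnrd1 the match GCTTTGTCA lay at bases -78 to -70, also on the opposite strand. In Gsta1 the match TGACTTTGC lay after the start, at bases 31 to 39. A match of letters describes the window and is not evidence of binding.

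Hypoxic and normoxic labels were checked on Car9, Vegfa and Ankrd37. Car9, a carbonic anhydrase induced by hypoxia-inducible factor, was 1.94 log2 units higher in hypoxic than in normoxic tumour regions, 1.60 higher at 6 h and 1.54 higher at 16 h, with no overlap between groups in any of the 3 comparisons. Vegfa was higher by 1.75, 1.04 and 1.25 in the same order, and Ankrd37 by 1.19, 2.42 and 3.16. Without overlap, 3 of the 3 genes were higher in tumours, 3 at 6 h and 2 at 16 h, beside 11.8%, 5.6% and 6.6% of all probe sets. The limma test described below called 0 of them in tumours, 2 at 6 h and 2 at 16 h. Of 8 listed glial genes 6 were measured. Among them vimentin (Vim), abundant in gliosarcoma cells, measured 11.89 to 12.38 in every tumour array. The astrocyte marker Gfap measured 4.87 to 5.77 over all arrays, a dim signal on these arrays. All 6 were higher in hypoxic tumour regions than in hypoxic cultures, by 0.06 to 1.24. In the normoxic comparison 4 were higher and 2 lower, with differences from -0.19 to 1.25. The share of the Vim signal that comes from host cells was not tested. Array medians were 6.36 to 6.5 in tumour regions and 6.02 to 6.19 in cultures, and the median difference over all probe sets was 0.37 for hypoxic tumour regions minus hypoxic cultures and 0.24 for the normoxic pair. The normoxic array of tumour 3 stood apart, with a correlation over probe sets of 0.941 with the mean of the normoxic cultures, against 0.865 to 0.892 for the other 5 tumour arrays. Nothing in the labels says that the cultures were grown separately, so a p-value for cultures reflects how far these arrays scatter, and that scatter may be technical. The number of arrays limits the precision throughout.

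The widest contrast was between tumour and culture. In hypoxic tumour regions 8 of the 10 members lay below hypoxic cultures with no overlap between groups, and in normoxic tumour regions 9 lay below normoxic cultures. Over all probe sets 17.6% did so in the hypoxic and 16.9% in the normoxic comparison. Over the scalings tried, the count of members without overlap in either direction was 7 to 8 in the hypoxic and 8 to 9 in the normoxic comparison. Nothing is read from these counts, since this contrast entered the choice of genes. The median member difference was -1.59 in the hypoxic and -1.90 in the normoxic comparison. Nqo1, Gsta1 and Akr1b8 were lower by at least 4 log2 units in both comparisons, as were 39 probe sets (0.143%) in the hypoxic and 12 (0.0439%) in the normoxic one. Under cyclic loess scaling the Akr1b8 difference was -3.56 in the hypoxic and -3.89 in the normoxic comparison, short of 4 units. In bulk RNA, fewer cells of a type and less RNA per cell cannot be told apart.

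**Figure D1:**
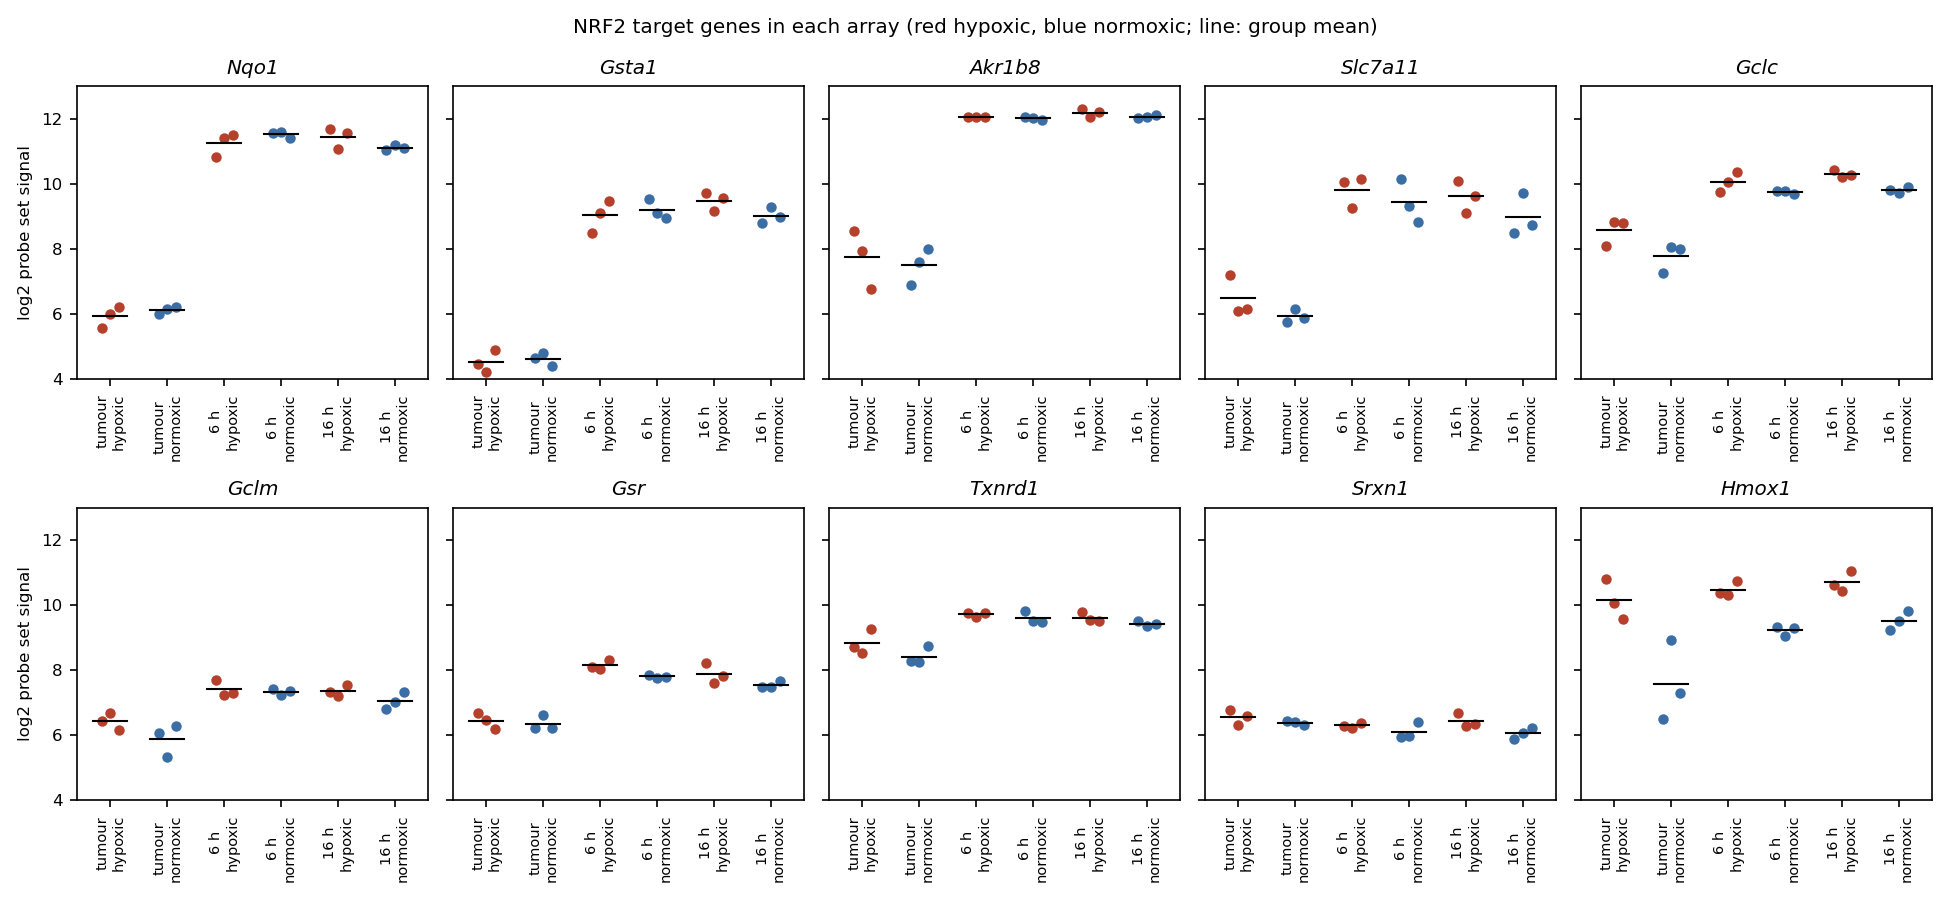
Log2 probe set signal of each of the 10 genes (vertical axis) in each of the 18 arrays, by group (horizontal axis), with red points for hypoxic and blue points for normoxic arrays and a line at the group mean of 3 arrays. Nqo1, Gsta1 and Akr1b8 sit far lower in tumour regions than in any culture, and Hmox1 shows a step between hypoxic and normoxic arrays in all 3 settings.

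Among the enzymes that disarm quinones and other electrophiles, Nqo1, the NAD(P)H quinone reductase often used as the readout of NRF2 activity, showed the widest gap. Nqo1 measured 5.56, 5.97 and 6.21 in hypoxic regions of tumours 1, 2 and 3, and 5.98, 6.15 and 6.20 in their normoxic regions. In 6 h cultures it measured 10.83, 11.39 and 11.48 under hypoxia and 11.56, 11.57 and 11.40 under normoxia, in the order of culture numbers 6, 13 and 26. In 16 h cultures it measured 11.66, 11.05 and 11.54 under hypoxia and 11.03, 11.17 and 11.09 under normoxia, in the order of culture numbers 22, 28 and 29. Every tumour array lay more than 4 units below every culture array. The difference was -5.41 ± 0.17 (SE) in the hypoxic comparison, a level 42.5-fold lower, and -5.19 ± 0.17 in the normoxic one, 36.5-fold lower. Over the scalings tried the Nqo1 difference ran from -5.77 to -4.61 in the hypoxic and from -5.50 to -4.52 in the normoxic comparison. Of the 27363 probe sets 1 had a lower hypoxic difference, and none had a lower normoxic difference.

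Akr1b8, an aldose reductase-like enzyme that reduces aldehydes, also lay far lower in tumour regions than in cultures. In tumours 1, 2 and 3 Akr1b8 measured 8.53, 7.93 and 6.76 in hypoxic regions and 6.89, 7.57 and 8.0 in normoxic regions. The 12 cultures lay between 11.96 and 12.30, so the tumour arrays scattered over a wider range than the cultures and never reached it. The tumour differences were -4.37 ± 0.28 in the hypoxic and -4.54 ± 0.28 in the normoxic comparison, or 20.7-fold and 23.3-fold lower.

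Gsta1, an alpha-class glutathione S-transferase that joins glutathione to electrophiles, measured 4.45, 4.21 and 4.87 in hypoxic regions and 4.62, 4.77 and 4.40 in normoxic regions of tumours 1, 2 and 3. The cultures ranged from 8.48 to 9.71. The tumour signals were dim: the 25th percentile of the tumour arrays lay between 5.14 and 5.41, and the deposited values carry no detection call. The difference was -4.73 ± 0.21 in the hypoxic and -4.51 ± 0.21 in the normoxic comparison. Alpha-class transferases are close relatives in sequence, and whether this probe set separates them was not tested.

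Slc7a11, the light chain of the cystine/glutamate exchanger that feeds glutathione synthesis, was the other gene with a gap of more than 3 units. Its signal was 7.20, 6.06 and 6.15 in hypoxic and 5.75, 6.15 and 5.86 in normoxic regions of tumours 1, 2 and 3. Its cultures were scattered, with an SD of 0.49 to 0.67 within the 4 groups. They ranged from 9.25 to 10.14 in hypoxic 6 h, 8.82 to 10.14 in normoxic 6 h, 9.10 to 10.09 in hypoxic 16 h and 8.49 to 9.71 in normoxic 16 h cells. No tumour array reached the lowest culture. The difference was -3.24 ± 0.34 in the hypoxic and -3.28 ± 0.34 in the normoxic comparison, or 9.42-fold and 9.73-fold lower. Over the scalings tried it ran from -3.59 to -2.61 in the hypoxic and from -3.60 to -2.73 in the normoxic comparison, so it could fall short of 3 units.

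The enzymes that make and recycle glutathione had smaller gaps. Gclc, the catalytic subunit of glutamate-cysteine ligase, the rate-limiting step of glutathione synthesis, differed by -1.61 ± 0.19 in the hypoxic and -2.0 ± 0.19 in the normoxic comparison. The hypoxic value of Gclc shrank to -0.86 under quantile and -0.80 under cyclic loess scaling, and the normoxic one to -1.51 and -1.32. Gclm, the modifier subunit of the same ligase, ranged from 6.16 to 6.67 in hypoxic and from 5.32 to 6.29 in normoxic tumour regions, against 6.81 to 7.69 in all cultures, and differed by -0.96 ± 0.19 in the hypoxic and -1.30 ± 0.19 in the normoxic comparison. Gsr, glutathione reductase, ranged from 6.18 to 6.69 in hypoxic and 6.21 to 6.63 in normoxic tumour regions, against 7.49 to 8.32 in all cultures. Its difference was -1.57 ± 0.14 in the hypoxic and -1.32 ± 0.14 in the normoxic comparison. All 3 genes lay below the matching cultures in every tumour array.

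The thioredoxin branch had gaps near 1 unit or less. Txnrd1, cytosolic thioredoxin reductase, differed by -0.83 ± 0.15 in the hypoxic and -1.09 ± 0.15 in the normoxic comparison, and its groups did not overlap. These Txnrd1 gaps depended on the scaling: under quantile and cyclic loess scaling they were -0.04 and -0.02 in the hypoxic, and -0.45 and -0.41 in the normoxic comparison. Srxn1, sulfiredoxin, which restores over-oxidized peroxiredoxins, ranged from 6.30 to 6.78 in hypoxic and 6.32 to 6.43 in normoxic tumour regions, against 5.87 to 6.68 in all cultures. Its differences of 0.19 ± 0.13 in the hypoxic and 0.30 ± 0.13 in the normoxic comparison came with overlapping groups, and their sign turned under quantile, cyclic loess and median scaling. Hmox1 differed by -0.44 ± 0.38 in the hypoxic comparison, with overlap, and this sign turned under quantile and cyclic loess scaling, to 0.28 and 0.36. In the normoxic comparison it differed by -1.80 ± 0.38, with no overlap. Its normoxic tumour arrays ranged from 6.49 to 8.93, a scatter that this single-spread SE understates.

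**Figure D2:**
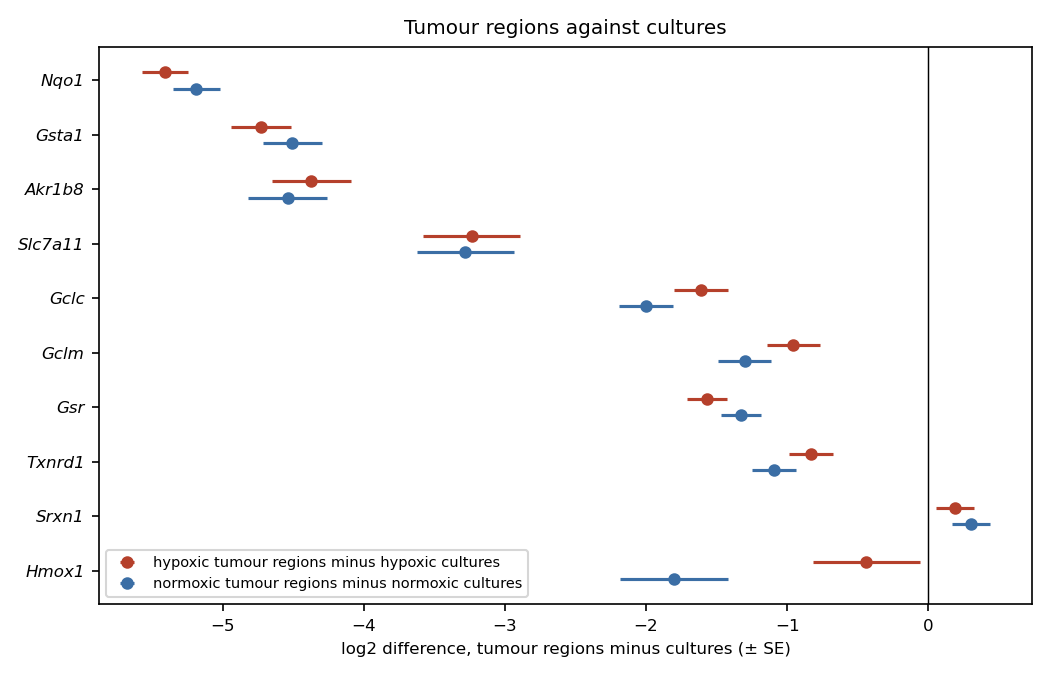
Log2 difference of tumour regions minus cultures (horizontal axis) for each of the 10 genes, in red for the hypoxic and in blue for the normoxic comparison. Bars are 1 SE from a fit that gives tumours and cultures a single spread, and can be too short for genes that scatter in tumours. Nqo1 lies at -5.41 and -5.19, Gsta1 and Akr1b8 beyond -4 (Akr1b8 short of it under cyclic loess scaling), and Srxn1 is the 1 gene above 0 in both, a sign that turned under quantile, cyclic loess and median scaling; the red point of Hmox1 changed sign under quantile and cyclic loess scaling.

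Markers of host cells differed in the same contrast. All 14 macrophage markers were measured, and their mean level ranged from 7.58 to 8.27 in hypoxic and 8.23 to 8.85 in normoxic tumour regions, against 5.60 to 5.76 in all cultures. Of these, 12 were higher without overlap in the hypoxic and 13 in the normoxic comparison, beside 45.3% and 33.6% of all probe sets. The 9 T and NK cell markers averaged 6.10 to 6.40 in hypoxic and 6.68 to 8.10 in normoxic tumour regions, against 4.98 to 5.36 in cultures, and all 9 were higher without overlap in both comparisons. The share of the member differences that goes with these cells was not tested. The macrophage haemoglobin receptor Cd163, a marker of cells that take up and degrade haem, measured 5.46 to 5.65 in hypoxic and 5.35 to 5.58 in normoxic tumour regions, against 4.70 to 5.17 in cultures.

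Hmox1 had the largest oxygen difference of the 10 genes in all 3 settings. In hypoxic regions of tumours 1, 2 and 3 Hmox1 measured 10.81, 10.05 and 9.58, against 6.49, 8.93 and 7.30 in their normoxic regions. At 6 h it measured 10.36, 10.32 and 10.74 in hypoxic cultures 6, 13 and 26, and 9.33, 9.06 and 9.31 in normoxic ones. At 16 h it measured 10.62, 10.43 and 11.06 in hypoxic cultures 22, 28 and 29, and 9.23, 9.50 and 9.81 in normoxic ones. Hypoxic arrays were above normoxic arrays in all 3 settings, without overlap. Hmox1 was the only member of which this held; over all probe sets it held for 59 (0.216%). Ordered by level, Hmox1 was at 10.70 ± 0.32 in hypoxic 16 h, 10.47 ± 0.23 in hypoxic 6 h and 10.15 ± 0.62 in hypoxic tumour groups (SD, n = 3 each). Below these came 9.52 ± 0.29 in normoxic 16 h, 9.23 ± 0.15 in normoxic 6 h and 7.57 ± 1.24 in normoxic tumour groups. The hypoxic groups overlapped each other, hypoxic tumours overlapped normoxic 16 h cultures, and both normoxic culture groups overlapped. Normoxic tumours lay below normoxic 6 h cultures with a narrow gap between 8.93 and 9.06.

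The test across all probe sets was limma's moderated test with Benjamini-Hochberg adjustment and a threshold of 0.05. Hmox1 was 1.24 ± 0.18 higher (SE) in hypoxic than in normoxic cultures at 6 h, a 2.37-fold rise (limma adjusted p = 0.00881), and 1.19 ± 0.18 higher at 16 h, a 2.28-fold rise (limma adjusted p = 0.00601). It was the 1 member called at each time. At 6 h limma called 0.19% of all probe sets, and at 16 h 0.705%. Because Hmox1 had been singled out with these data in view, its calls are not independent evidence. The 6 h call ended without hypoxic culture 26 (limma adjusted p = 0.0699) or without normoxic culture 13 (limma adjusted p = 0.0695), while leaving out any single 16 h culture kept the adjusted p at 0.00437 to 0.048. When all 18 arrays shared 1 estimate of spread, the SE of Hmox1 grew to 0.44 and both calls ended (limma adjusted p = 1 at 6 h and 0.984 at 16 h).

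In tumours Hmox1 was 2.58 ± 0.56 higher in hypoxic regions, a 5.97-fold difference and the third highest of 27363, with limma adjusted p = 0.281. The tumours did not share 1 size of difference: it was 4.33 in tumour 1, 1.12 in tumour 2 and 2.29 in tumour 3. No probe set passed the adjusted threshold in tumours (0 of 27363, 0%). On simulated data with a like spread, the tumour fit recovered 26% of changes of 2 log2 units and 0% of changes of 1 unit. Differences of this size can thus be missed with 3 tumours. The simulated regions of a tumour shared no deviation, so these shares need not hold for the real pairs. In the same limma fit 9.12% of probe sets had an unadjusted p under 0.05, among them the members Hmox1 and Gclc. A limma fit with trended and robust variance called 22 probe sets in tumours and no member. Without tumour 1, Hmox1 was 1.71 higher with limma adjusted p = 0.00389. In that fit 563 probe sets were called. When the 9 pairs of all 18 arrays entered 1 fit, Hmox1 and Gclc passed (limma adjusted p = 0.0101 and 0.0112), beside 1408 probe sets in all. That fit gives tumours and cultures a single spread, although the median residual SD was 0.25 in tumours and 0.157 in cultures.

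**Figure D3:**
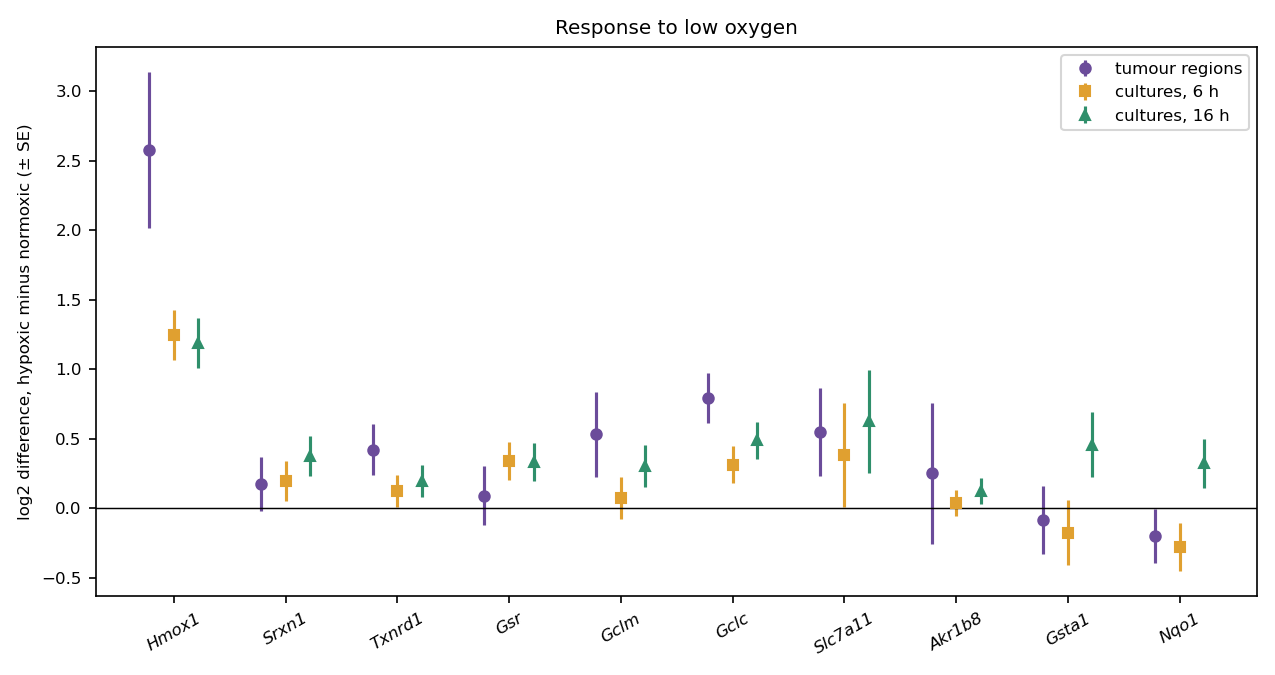
Log2 difference of hypoxic minus normoxic arrays (vertical axis, with bars of 1 SE) for each of the 10 genes, in tumour regions (circles), 6 h cultures (squares) and 16 h cultures (triangles). Hmox1 lies at 2.58, 1.24 and 1.19, and every other point lies below 0.80.

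Host cell markers also differed between tumour regions. The macrophage list had a median difference of -0.49 in hypoxic minus normoxic regions, with 11 of 14 markers lower, 0 of them called by limma. T and NK cell markers had a median of -0.70, with 8 of 9 lower. All 6 neutrophil markers were higher, with a median of 0.20 and mean levels of 5.35 to 5.95 in hypoxic and 5.09 to 5.39 in normoxic regions. For each neutrophil marker the regions overlapped, and limma called 0 of the 6. These levels were dim, beside a 25th percentile of 5.14 to 5.41 in tumour arrays. Over all probe sets 64.8% were higher in hypoxic regions, with a median of 0.10. Red cell markers, 3 of 8 measured, averaged 6.17 to 6.69 in hypoxic and 6.34 to 6.58 in normoxic regions. Their part in the tumour differences of Hmox1 and the other members was not tested.

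Gclc had the next largest tumour difference after Hmox1. Gclc measured 8.07, 8.82 and 8.79 in hypoxic regions of tumours 1, 2 and 3, and 7.26, 8.06 and 7.99 in their normoxic regions. The paired differences of 0.82, 0.76 and 0.80 were nearly equal in the 3 tumours, and the groups did not overlap. The mean difference of 0.79 ± 0.18, or 1.73-fold, had limma adjusted p = 0.293. At 16 h Gclc measured 10.43, 10.19 and 10.25 in hypoxic cultures 22, 28 and 29, and 9.80, 9.71 and 9.88 in normoxic ones. These groups did not overlap either, and the difference was 0.49 ± 0.13 (limma adjusted p = 0.164). At 6 h it measured 9.75, 10.05 and 10.36 in hypoxic cultures 6, 13 and 26, and 9.77, 9.78 and 9.68 in normoxic ones, which overlap, with a difference of 0.31 ± 0.13 (limma adjusted p = 0.971). Hmox1 and Gclc were the 2 members higher without overlap in tumours, where 11.8% of all probe sets were higher without overlap.

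In the other glutathione genes no difference passed. Slc7a11 was 0.55 ± 0.32 higher in hypoxic tumour regions, 0.38 ± 0.37 at 6 h and 0.62 ± 0.37 at 16 h. Of its 3 tumours, tumour 1 gave 1.45, tumour 2 gave -0.09 and tumour 3 gave 0.29. Gclm differed by 0.53 ± 0.30 in tumours, by 0.07 ± 0.15 at 6 h and by 0.31 ± 0.15 at 16 h. Its tumour pairs gave 0.37 in tumour 1, 1.35 in tumour 2 and -0.12 in tumour 3, and the mean was 0.12 without tumour 2 and 0.86 without tumour 3. Gsr differed by 0.09 ± 0.21 in tumours, a sign that cyclic loess scaling turned. In cultures Gsr differed by 0.34 ± 0.14 at 6 h, where its groups of 8.04 to 8.32 under hypoxia and 7.76 to 7.85 under normoxia did not overlap, and by 0.33 ± 0.14 at 16 h. At 6 h 5.6% of all probe sets were higher without overlap, and Hmox1 and Gsr were the 2 such members.

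The thioredoxin genes had small differences. Txnrd1 was 0.42 ± 0.18 higher in hypoxic regions and higher in all 3 tumours, with 0.12 ± 0.12 at 6 h and 0.20 ± 0.12 at 16 h. Srxn1 differed by 0.18 ± 0.19 in tumours, 0.20 ± 0.14 at 6 h and 0.38 ± 0.14 at 16 h. Its 16 h groups, 6.28 to 6.68 in hypoxic and 5.87 to 6.22 in normoxic cultures, did not overlap. Hmox1, Gclc and Srxn1 were the 3 members higher without overlap at 16 h, beside 6.6% of all probe sets.

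Nqo1, Gsta1 and Akr1b8, the genes with the widest gap between tumour and culture, did not pass in any oxygen comparison. Nqo1 differed by -0.20 ± 0.19 in tumours (95% interval -0.66 to 0.27), by -0.28 ± 0.17 at 6 h (-0.65 to 0.10) and by 0.32 ± 0.17 at 16 h (-0.05 to 0.70). Gsta1 differed by -0.09 ± 0.25, -0.18 ± 0.23 and 0.46 ± 0.23 in the same order. Akr1b8 differed by 0.25 ± 0.51 in tumours, where its tumours gave 1.64, 0.36 and -1.24, so that without tumour 1 its mean turned to -0.44. In cultures Akr1b8 differed by 0.04 ± 0.09 at 6 h, a sign that median centring turned, and by 0.12 ± 0.09 at 16 h.

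Over the list, 8 of 10 members lay above 0 in tumours and 8 of 10 at 6 h, and all 10 at 16 h. Over all probe sets 64.8%, 54.2% and 42.8% lay above 0. The member medians were 0.34, 0.16 and 0.35, beside medians of 0.10, 0.01 and -0.03 over all probe sets. All but Nqo1 and Gsta1 lay above 0 in each of the 3 comparisons, as did 16.3% of all probe sets. Set against the mean of the other 9 members within each pair, the change of Hmox1 was 2.30 log2 units larger in tumours (0.94 to 3.78 over the 3 tumours). It was 1.13 larger at 6 h (1.06 to 1.18) and 0.83 larger at 16 h (0.68 to 0.92). The differences of the other 9 members averaged 0.28, 0.11 and 0.36 in tumours, at 6 h and at 16 h.

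The change of the oxygen difference between settings was tested directly. No probe set was called for a change between its 6 h and 16 h differences (limma, 0 of 27363, 0%, and 4.36% at an unadjusted p under 0.05). This comparison was not simulated, so the size of change it can miss is not known. Nqo1 had a change of 0.60 ± 0.25 between the 16 h and 6 h differences (limma adjusted p = 0.982), its differences having opposite signs at the 2 times. Gsta1 had a change of 0.63 ± 0.33 and Hmox1 one of -0.05 ± 0.26, whose sign turned under median centring. Slc7a11, Gclm, Srxn1, Gclc, Akr1b8 and Txnrd1 had changes between 0.07 and 0.24, and Gsr one of -0.01, which also turned under median centring. The tumour difference minus the mean culture difference was called for 1.17% of probe sets and for 0 of the 10 members. This fit gives tumours and cultures a single spread, and on simulated data it passed far more unchanged probe sets than its threshold allows. Array weights by tissue, or separate spreads, called 46 and 30 probe sets in place of 319, and on simulated data these fits too passed more unchanged probe sets than allowed. Its adjusted p-values are therefore too small, and its calls are given as values only. Hmox1 had the largest member value, 1.36 ± 0.53 (95% interval 0.18 to 2.54; limma adjusted p = 0.242), followed by Gclc with 0.39 ± 0.17 (limma adjusted p = 0.278). With separate spreads their adjusted p from limma variances was 0.533 and 0.591. Gclm, Txnrd1, Akr1b8 and Slc7a11 lay between 0.05 and 0.34, and Gsr, Gsta1, Nqo1 and Srxn1 between -0.24 and -0.11. Without tumour 2, the tumour whose Hmox1 pair differed least, the Hmox1 value was 2.09 with limma adjusted p = 0.0265. Without tumour 1 it was 0.49. Of the wider lists of pathway genes, Idh1 (-1.99 ± 0.33, limma adjusted p = 0.0251), Nqo2 (-1.02 ± 0.19, 0.0356) and Slc3a2 (1.20 ± 0.24, 0.0475) passed in this fit, as did the macrophage marker C1qa (-1.77 ± 0.36). With array weights by tissue the limma adjusted p was 0.157 for Idh1, 0.188 for Nqo2 and 0.115 for Slc3a2, and with separate spreads 0.0137, 0.138 and 0.236. The Nqo2 call also ended without tumour 1, both the Nqo2 and the Slc3a2 call without any 1 of the 6 culture pairs, and the Idh1 call without culture pair 13, 22 or 29. Median centring ended the Slc3a2 call as well (limma adjusted p = 0.0641), as did trended and robust variance (limma adjusted p = 0.0615).

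Time in culture is not named in the rule that chose the genes, although results of these data were known at that point. Between normoxic 16 h and normoxic 6 h cultures Nqo1 lay lower without overlap, with a difference of -0.41 ± 0.17 (limma adjusted p = 0.183), and so did Gsr, with -0.26 ± 0.14 (limma adjusted p = 0.297). No member was called, beside 4.86% of all probe sets, and 13.6% of all probe sets lay lower without overlap. Hmox1, Gclc and Akr1b8 lay between 0.05 and 0.28, and Srxn1, Gsta1, Txnrd1, Gclm and Slc7a11 between -0.45 and -0.04, all with overlap. The signs of Gclc and Akr1b8 turned under median centring. Between hypoxic 16 h and hypoxic 6 h cultures Gsta1 had 0.45 ± 0.23 and Gsr -0.27 ± 0.14, with overlap. Akr1b8 was the 1 member higher without overlap, by 0.14 ± 0.09 (limma adjusted p = 0.504), beside 9.32% of all probe sets. Hmox1, Gclc, Nqo1 and Srxn1 lay between 0.14 and 0.23, and Gclm, Txnrd1 and Slc7a11 between -0.21 and -0.06. Again no member was called, beside 2.93% of all probe sets. The 6 h and 16 h arrays carry different codes in their titles, so time and culture set cannot be told apart.

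Over the 6 group means, each centred on its gene's own average, the members fell into unlike profiles. The root mean square distance between 2 profiles, over 6 groups and in log2 units, was 0.0916 for Gclm and Txnrd1, 0.169 for Gsta1 and Akr1b8, and 0.342 for Nqo1 and Gsta1. It was 2.62 for Nqo1 and Srxn1 and 2.19 for Nqo1 and Hmox1. Of all genes measured, those closest to Hmox1 were Bnip3 (0.274), a mitophagy receptor, Kdm3a (0.321), a histone demethylase, Gys1 (0.371), muscle-type glycogen synthase, Ero1a (0.380), an oxidase of the endoplasmic reticulum, and Plod2 (0.401), a lysyl hydroxylase. Closest to Nqo1 were Rpa3 (0.314), a subunit of replication protein A, Gsta1 (0.342), Akr1b8 (0.440), Fgf7 (0.495), a growth factor, and Gpr15lg (0.498). The nearest genes to Gclc, Gclm, Txnrd1, Srxn1 and Gsr lay within 0.0904 of them and were Paip2, Ociad1, Mkks, Sirt4 and Ola1. Slc7a11 had Hikeshi (0.154) and Areg (0.171) as nearest, and the malic enzyme gene Me1 at rank 4 with 0.254. A flat profile has many near neighbours, so these distances rank genes for 1 member and are not compared between members.

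**Figure D4:**
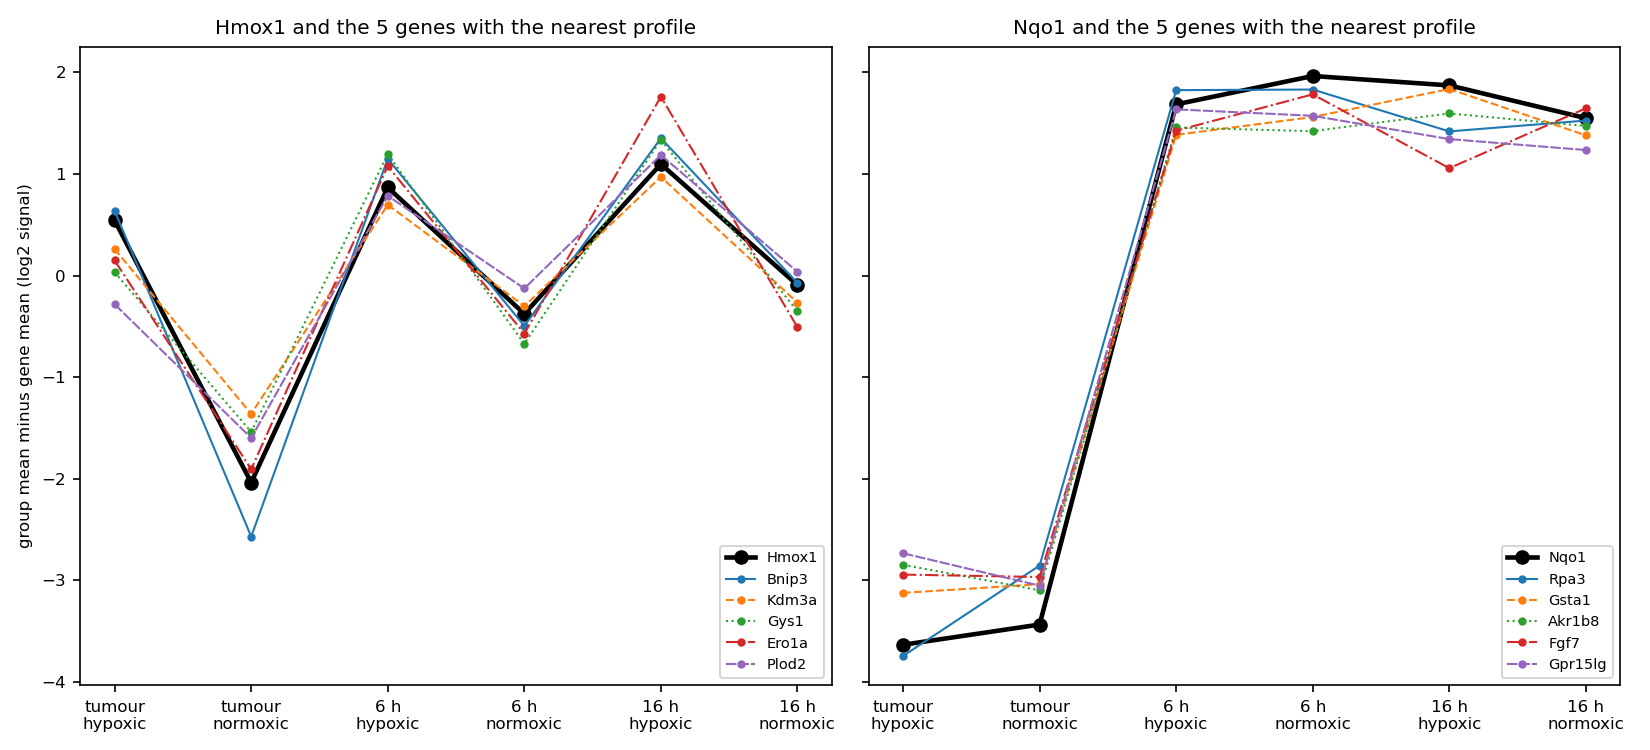
Group mean minus the gene's own mean (vertical axis, log2 units) over the 6 groups for Hmox1 with its 5 nearest genes (left) and Nqo1 with its 5 nearest genes (right); member genes are drawn in black. Hmox1 and its neighbours step with oxygen in all 3 settings and are lowest in normoxic tumour regions, while Nqo1 and its neighbours are low in both tumour groups. The neighbours were chosen by these same group means, so the shared shape follows from the choice.

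All 9 listed regulators of the pathway were measured. In tumours, at 6 h and at 16 h 0 passed, beside 0%, 0.19% and 0.705% of all probe sets. With so few calls over all probe sets, nothing is read from this count or from the like counts of the lists below. Nfe2l2 differed by -0.07 ± 0.27 in hypoxic minus normoxic tumour regions, by -0.19 ± 0.16 at 6 h and by -0.18 ± 0.16 at 16 h, and in tumour minus culture by -1.33 ± 0.18 in the hypoxic and -1.43 ± 0.18 in the normoxic comparison. Keap1 differed by -0.14 ± 0.19, 0.04 ± 0.18 and -0.06 ± 0.18 with oxygen, and by 0.37 and 0.50 in the hypoxic and normoxic tumour minus culture comparisons. Bach1, the repressor of Hmox1, differed by 0.49 ± 0.25, 0.36 ± 0.20 and 0.48 ± 0.20 with oxygen. Sqstm1, an autophagy receptor that competes for KEAP1, had 0.47 ± 0.27 in tumours and 0.48 ± 0.12 at 16 h (limma adjusted p = 0.113), and Mafg, a small MAF, had 0.14 ± 0.10 at 6 h. Between the 16 h and 6 h differences Sqstm1 had 0.44 ± 0.17 and Mafg -0.18 ± 0.15.

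Of 20 further detoxification genes 17 were measured. Cbr1, carbonyl reductase, rose by 0.62 ± 0.12 in hypoxic 16 h cultures (limma adjusted p = 0.0223) and was the 1 call of this list in the 3 oxygen comparisons. That call ended without any of 4 cultures, hypoxic 22, hypoxic 29, normoxic 22 and normoxic 28 (limma adjusted p = 0.136, 0.0613, 0.132 and 0.0838), and in the fit of all 18 arrays (limma adjusted p = 1). At 6 h Cbr1 differed by 0.23 ± 0.12 and the microsomal transferase Mgst1 by -0.21 ± 0.14. In tumours the quinone reductase Nqo2 differed by -0.94 ± 0.19 (limma adjusted p = 0.251) and Mgst1 by -0.79 ± 0.21 (limma adjusted p = 0.365). Between the 16 h and 6 h differences, Ptgr1, a reductase of lipid aldehydes, had 0.60 ± 0.24 and Cbr1 0.39 ± 0.16. The list median was 0.03 in tumours, -0.02 at 6 h and 0.07 at 16 h.

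Of 13 partners in glutathione and thioredoxin metabolism 12 were measured. In tumours, at 6 h and at 16 h 0 passed, beside 0%, 0.19% and 0.705% of all probe sets. Slc3a2, the heavy chain that pairs with Slc7a11, was 1.18 ± 0.27 higher in hypoxic tumour regions without overlap (limma adjusted p = 0.296), and the peroxidase Gpx1 lay at -0.81 ± 0.23 (limma adjusted p = 0.399). At 16 h Gpx1 had -0.46 ± 0.11 (limma adjusted p = 0.0852) and the peroxiredoxin Prdx1 0.36 ± 0.09 (limma adjusted p = 0.121). At 6 h Prdx1 had 0.16 ± 0.09 and glutathione synthetase, Gss, -0.24 ± 0.17. Between the 16 h and 6 h differences Gpx1 had -0.47 ± 0.15 and Slc3a2 0.30 ± 0.18. The list median was -0.23 in tumours, 0.00 at 6 h and 0.08 at 16 h.

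Of 6 NADPH-supplying enzymes 4 were measured. None was called in tumours, at 6 h or at 16 h, beside 0%, 0.19% and 0.705% of all probe sets. Idh1, cytosolic isocitrate dehydrogenase, lay lower in the hypoxic region of all 3 tumours, with differences of -1.90 in tumour 1, -1.91 in tumour 2 and -1.41 in tumour 3 and a mean of -1.74 ± 0.20 (limma adjusted p = 0.145). Malic enzyme, Me1, had 0.43 ± 0.25 in tumours, 0.14 ± 0.20 at 6 h and 0.60 ± 0.20 at 16 h. Transketolase, Tkt, had 0.68 ± 0.15 at 16 h (limma adjusted p = 0.0629) and transaldolase, Taldo1, -0.16 ± 0.14 at 6 h. Between the 16 h and 6 h differences Tkt had 0.61 ± 0.21 and Me1 0.46 ± 0.28. List medians were 0.04, 0.08 and 0.50 in tumours, at 6 h and at 16 h.

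Of 12 listed haem and iron genes around Hmox1, 11 were measured. In tumours, at 6 h and at 16 h 0 passed, beside 0%, 0.19% and 0.705% of all probe sets. Biliverdin reductase A, Blvra, the next enzyme after haem oxygenase, lay at -0.83 ± 0.20 in tumours (limma adjusted p = 0.328), and the iron exporter Slc40a1 at 0.55 ± 0.18. At 6 h Blvrb, the second biliverdin reductase, had -0.28 ± 0.20 and Hmox2, the constitutive haem oxygenase, 0.15 ± 0.14. At 16 h the haem transporter Slc48a1 had 0.41 ± 0.11 (limma adjusted p = 0.139) and the haem scavenger gene Hpx 0.36 ± 0.13. Between the 16 h and 6 h differences Blvrb had 0.65 ± 0.29 and Slc48a1 0.32 ± 0.15. List medians were -0.10 in tumours, -0.01 at 6 h and 0.16 at 16 h.

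Slc7a11 is also a target of ATF4, the transcription factor of the amino acid response, and 7 of 8 other ATF4 pathway genes were measured. Limma called 0 of them in tumours, at 6 h and at 16 h, beside 0%, 0.19% and 0.705% of all probe sets. Ddit3, which encodes the stress factor CHOP, had 0.92 ± 0.27 in tumours (limma adjusted p = 0.402) and 0.78 ± 0.18 at 16 h (limma adjusted p = 0.0721). The amino acid transporter Slc7a5 had -0.37 ± 0.19 in tumours and -0.38 ± 0.14 at 16 h. At 6 h the pseudokinase gene Trib3 had 0.53 ± 0.39 and asparagine synthetase, Asns, -0.15 ± 0.12. Between the 16 h and 6 h differences Ddit3 had 0.67 ± 0.25 and Slc7a5 -0.38 ± 0.19.

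Time in culture gave further calls in these lists. Between hypoxic 16 h and hypoxic 6 h cultures the peroxidase gene Gpx1 fell by 0.78 ± 0.11 (limma adjusted p = 0.00257), a call that held without any 1 culture. Keap1, the repressor of NRF2, measured 6.26 to 6.45 in hypoxic 16 h and 6.93 to 7.21 in hypoxic 6 h cultures, a difference of -0.75 ± 0.18 (limma adjusted p = 0.0385, and 0.0507 to 0.121 without any 1 culture). Mgst1 differed by -0.67 ± 0.14 (limma adjusted p = 0.021, up to 0.0872), Hpx by 0.57 ± 0.13 (limma adjusted p = 0.0316, up to 0.106) and Ddit3 by 0.79 ± 0.18 (limma adjusted p = 0.0331, up to 0.104). Of these the Mgst1 call ended without culture 13, 26 or 28, the Hpx call without any 1 culture but 29, and the Ddit3 call without culture 6, 13, 26 or 28. Between normoxic 16 h and normoxic 6 h cultures Mgst1 differed by -0.53 ± 0.14 (limma adjusted p = 0.045), Taldo1 by -0.63 ± 0.14 (limma adjusted p = 0.0232) and Blvrb by -0.80 ± 0.20 (limma adjusted p = 0.0379). Keap1 was lower in this normoxic comparison too, by -0.65, and was not called there. The Mgst1 call ended without any 1 culture, that of Taldo1 without any but 13 and that of Blvrb without any but 6, and those of Mgst1 and Taldo1 ended under quantile and cyclic loess scaling. Over all probe sets 2.93% were called in the hypoxic and 4.86% in the normoxic comparison of times.

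**Figure D5:**
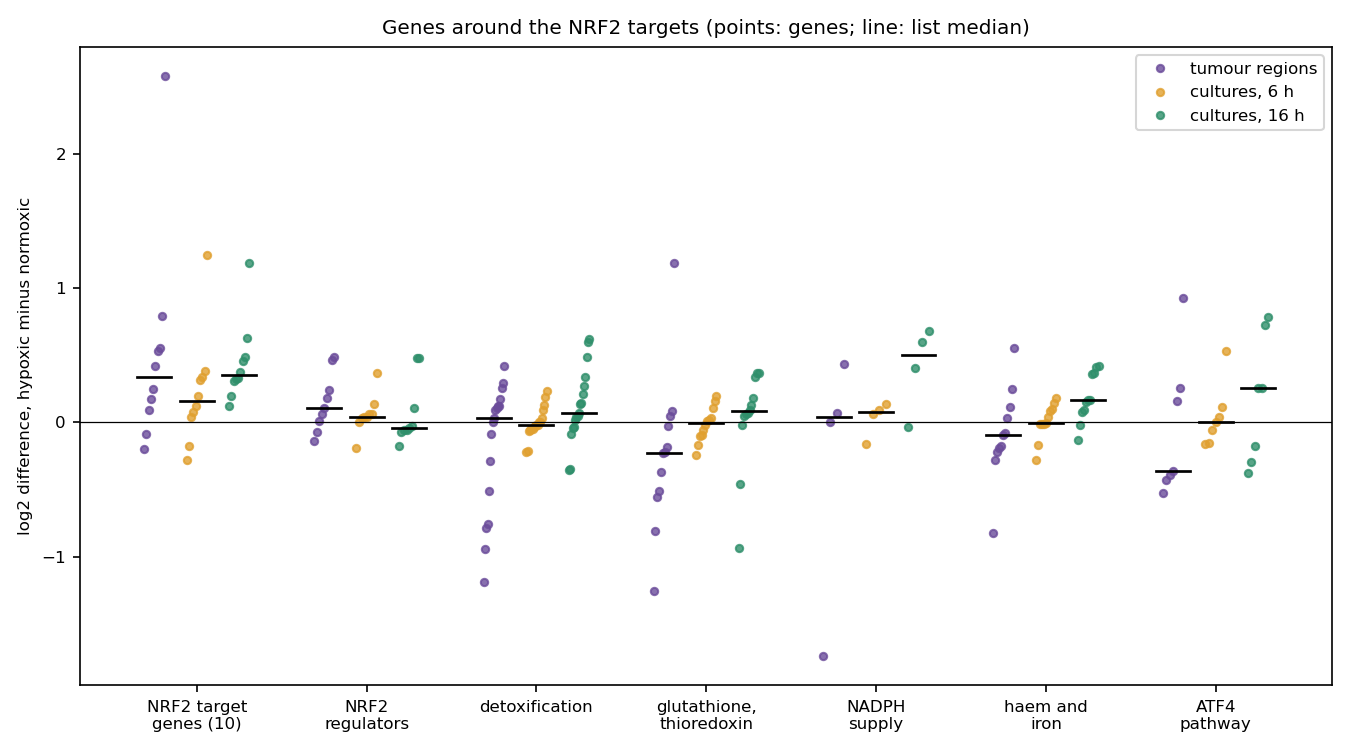
Log2 difference of hypoxic minus normoxic arrays (vertical axis) for each measured gene of the 10 NRF2 targets and of 6 neighbouring lists (horizontal axis), in tumour regions, 6 h and 16 h cultures, with a line at each list's median. The NRF2 targets have medians of 0.34, 0.16 and 0.35, with Hmox1 as the highest point in each setting.

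Several of these neighbours were also lower in tumour than in culture, and the following were picked after their values were seen. Me1 differed by -2.83 in the hypoxic and -2.89 in the normoxic comparison, Prdx1 by -2.55 and -2.33, and the transferase Gstm1 by -2.80 and -2.13. Akr1b1, aldose reductase, differed by -3.25 and -2.23, and the transferase Gstp1 by -3.04 and -1.81. All 5 lay below the matching cultures without overlap. Of the glutathione and thioredoxin list, 8 of 12 genes did so in the hypoxic and 6 of 12 in the normoxic comparison, and of the NADPH list all 4 did in both. Of the 17 detoxification genes, 6 did in the hypoxic and 5 in the normoxic comparison, while 4 and 3 lay above without overlap. The regulators had 2 of 9 below in both, with 3 and 1 above. Of the 11 haem and iron genes 3 and 2 lay below, with 2 above in both. The ATF4 list had 3 of 7 below and 1 above in both. Of the glutathione and thioredoxin list 1 and 0 lay above. Over all probe sets 17.6% lay below without overlap in the hypoxic and 16.9% in the normoxic comparison, and 45.3% and 33.6% lay above.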

How the data were processed

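The RNA of 18 rat samples, 3 in each of 6 groups, was amplified with NuGEN's Ovation WT-Pico kit and measured on the Rat Gene 1.0 ST array of Affymetrix, per the labels' protocols. RMA and Partek 6.5b produced the log2 signals that the authors deposited, per the submitters' processing notes. The set of arrays that RMA normalized at once, and the annotation used, are not given in the sources used here. Samples were grouped by their titles. Of 27363 probe sets, 15420 are in the platform annotation, 15097 of them with 1 gene symbol and 323 with several; a gene with more than 1 probe set (499 genes) was represented by the one with the highest mean.

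From these values limma 3.58.1 in R 4.3.3 (lmFit and eBayes, two-sided, Benjamini-Hochberg adjustment over all probe sets, threshold 0.05, no filter on low values) was fitted to the 6 tumour arrays with tumour number as a block, since both regions came from the same tumour, and to the 12 culture arrays in 4 groups. Tumour against culture differences in oxygen response used all 18 arrays with 9 pairs as blocks, and tumour minus culture levels used all 18 arrays in 6 groups without a test. The oxygen fits in tumours, at 6 h and at 16 h were each tested on a single simulated data set, and kept false calls at or below the threshold. The fit of tumour against culture response, tested in the same way, did not. The simulated arrays shared no deviation within a pair, so these results need not hold for the real tumours and cultures. The comparisons between 16 h and 6 h were not simulated. Arrays of the same culture number deviated together from their group means, with correlations over probe sets of 0.125 to 0.193 at 6 h and 0.13 to 0.307 at 16 h. This pairing was taken from the numbers in the titles and the data. The tumour pairs had 0.128, 0.0357 and 0.273. For culture 6 another culture number gave a higher correlation (0.177 against 0.125), and for tumour 2 another tumour did (0.167 against 0.0357). In every other pair the same number gave the highest value. No 2 arrays were identical.

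Every member was named in each comparison, some by a range. Of the wider gene lists, those past the threshold were named, otherwise, in the oxygen and 16 h against 6 h response comparisons, the 2 with the smallest p, and always Nfe2l2, Keap1 and Bach1. The members and lists were chosen with earlier results of these data known. Alternatives were the scaling between arrays, the variance model, a filter on dim probe sets, a stricter call rule, the block, the arrays in the fit and each replicate left out; array weights by tissue, and separate spreads for tumours and cultures (separate limma fits, Satterthwaite degrees of freedom), were added after seeing the data.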

Additional observations from a re-analysis of the deposited data

How the results depend on the processing

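The count of members called by limma in tumours was 0 and became 2, Hmox1 and Gclc, when all 18 arrays entered with 9 pairs as replicate block; leaving out 1 tumour gave 0 to 1. At 6 h the count of 1 became 0 with all 18 arrays in 6 groups, and 0 to 1 with 1 culture left out. At 16 h it became 0 with all 18 arrays in 6 groups and stayed 1 with any culture left out. For the tumour minus culture response the count was 0, and 0 to 1 with 1 tumour or culture pair left out. The replicate block by culture number changed no call of a member (Hmox1 adjusted p = 0.00241 at 6 h and 0.0018 at 16 h by limma), and tumours without the block gave Hmox1 an adjusted p of 0.432. Signs that turned were those of small differences: Gsr in tumours under cyclic loess (-0.018) and without tumour 1 (range -0.10 to 0.22), Akr1b8 in tumours without tumour 1 (-0.44 to 1.00), Gsta1 in tumours without tumour 2 (-0.36 to 0.15), Akr1b8 at 6 h under median centring (-0.0035), and at 6 h without hypoxic culture 6 Gclm (-0.067 to 0.16) and Gsta1 (-0.40 to 0.094). In the change between the 16 h and 6 h differences, Hmox1 was 0.019 and Gsr 0.064 under median centring, and with 1 culture left out Hmox1 was -0.23 to 0.096, Gsr -0.17 to 0.12, Txnrd1 -0.037 to 0.13 and Slc7a11 -0.12 to 0.61. In the tumour minus culture response, leaving out 1 pair gave Gclm -0.068 to 0.67, Srxn1 -0.20 to 0.023, Gsta1 -0.50 to 0.012, Akr1b8 -0.52 to 0.92 and Slc7a11 -0.40 to 0.36. Between normoxic times Gclc was -0.033 and Akr1b8 -0.038 under median centring, and Srxn1 -0.13 to 0.10 with 1 culture left out. Between hypoxic times 1 culture left out gave Nqo1 -0.014 to 0.37, Gclm -0.15 to 0.078 and Slc7a11 -0.49 to 0.048. In tumour minus culture, Srxn1 was -0.097, -0.37 and -0.16 in the hypoxic and -0.013, -0.13 and -0.011 in the normoxic comparison under quantile, cyclic loess and median scaling, and Hmox1 in the hypoxic comparison was 0.28 under quantile and 0.36 under cyclic loess scaling. The cause was not tested. Counts over all probe sets moved more. In tumours 0 became 22 (trended and robust variance), 1 (without the dimmest 25%), 1408 (all 18 arrays) and 0 to 563 (1 tumour left out, 563 without tumour 1). At 6 h 52 became 6 with all 18 arrays, and 27 to 50 with 1 culture left out. At 16 h 193 became 33 with all 18 arrays, and 74 to 171 with 1 culture left out. For the tumour minus culture response 319 became 638 under quantile scaling, 46 with array weights by tissue, 30 with separate spreads, and 44 to 1365 with 1 pair left out. Between normoxic times 1330 became 823 (quantile), 851 (cyclic loess) and 363 to 907 (1 culture left out), and between hypoxic times 801 became 295 to 894. Using every probe set of a gene changed nothing for the members, which have 1 each, and was not run. Dim signals limit what Gsta1 shows in tumours, and 3 arrays a group limit the rest.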
